A study of Arabidopsis thaliana with 3 samples.

Results

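Cytosolic ribosomal proteins are the protein part of the ribosomes that translate nuclear transcripts in the cytosol. The genes described here are the nuclear genes of Arabidopsis thaliana whose annotated description in the deposited table names a 40S or 60S ribosomal protein or a 60S acidic ribosomal protein. They number 211 of the 30271 genes in the table: 107 of the large subunit, 92 of the small subunit and 12 of the acidic stalk (P-stalk). Of these, 194 passed the filter on low values, which asked for 10 normalized counts or more in 3 or more libraries, and 17 did not. The 17 had normalized counts of at most 11.7 in any library. A description is not proof of place: 3 members (S10 AT3G22300, S19 AT5G47320 and L16-like AT2G28815) are annotated as mitochondrial, and none of these was called with all 9 libraries in the fit. Names such as S17-3 below are those of the descriptions, with S for the small and L for the large subunit.

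RNA was sequenced from whole seedlings aged 9 days in 3 groups of 3 libraries, from total RNA depleted of ribosomal RNA. WT was a Ws x Col-0 cross, so it carries both accessions. T12 and T34 are populations of gip1 gip2 mutants, from a cross between gip1 (line GABI_213D01) and gip2 (line FLAG_36406), and their root growth phenotype was of increasing severity, which is taken to mean that T34 is the more affected. The mutated genes encode small subunits of the complexes of gamma-tubulin, from which microtubules grow. The question asked of the members was how their transcripts differ between each mutant population and WT, and between the populations. GIP2 (AT1G73790) had 0 to 5 reads in every library and gives no check of the labels. GIP1 is not analysed here.

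The ribosome has a large subunit, which forms peptide bonds, and a small subunit, which reads the mRNA. The P-stalk is a lateral arm of the large subunit that recruits the elongation factors. In Arabidopsis each ribosomal protein is encoded by a small family of genes, whose products (paralogs) are alike but not always equal in level. Many of these genes carry the telo-box and site II elements in their promoters, short motifs known from genes of growing and dividing plant cells. In plants, as in animals and yeast, the kinase TOR and its target S6 kinase, which phosphorylates ribosomal protein S6, promote ribosome production and translation.

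The libraries held 20963358 to 30438933 reads. Ribosomal RNA took 0.951 to 1.77% of the reads in T12, 45.0 to 49.4% in T34, and 22.5, 95.7 and 49.1% in WT replicates 1, 2 and 3. T12 was below WT and T34 without overlap, so in comparisons with T12 the group and the ribosomal RNA share cannot be told apart. The part of this share in the members' values was not tested. WT replicate 2 was left with 645093 reads of other nuclear genes and 16506 reads of members, against 155191 to 467637 reads of members in the other libraries. In it the median tested member had 50.5 reads and 28 tested members had under 10. Results without it are given for the counts of called members and for some named members, but not for every gene. The leaf genes RBCS1A, RBCS3B, LHCB1.3 and LHCB3, summed, had 94934 to 153571 normalized counts in WT, 94124 to 101106 in T12 and 51009 to 61408 in T34, so transcripts of green tissue were present in every group. In bulk RNA, fewer cells of a type and less RNA per cell cannot be told apart.

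The promoters of the genes for proteins L3 and P0 are shown first. Each family holds a gene of high level (L3-1, P0-2) beside a gene of low level (L3-2, P0-1). L3-2 was called higher in both mutant populations. P0-1 was higher in both as well, but it passed the filter on low values through mutant libraries alone. Its rise was thus built into its being tested. Each line gives the 250 bases upstream of the annotated gene start, 5′ to 3′ on the gene's strand, from the RefSeq assembly TAIR10.1. Capitals mark site II matches (TGGGCC or TGGGCT, on either strand) and telo-box matches (AAACCCTA, on either strand), of which these promoters have none.
L3-1 AT1G43170 chr1:16266303-16266552 (+): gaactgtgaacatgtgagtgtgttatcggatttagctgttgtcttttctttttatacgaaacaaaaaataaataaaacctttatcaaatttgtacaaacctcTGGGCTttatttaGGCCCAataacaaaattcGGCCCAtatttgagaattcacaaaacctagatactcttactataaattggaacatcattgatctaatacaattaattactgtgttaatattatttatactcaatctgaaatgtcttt
L3-2 AT1G61580 chr1:22723153-22723402 (-): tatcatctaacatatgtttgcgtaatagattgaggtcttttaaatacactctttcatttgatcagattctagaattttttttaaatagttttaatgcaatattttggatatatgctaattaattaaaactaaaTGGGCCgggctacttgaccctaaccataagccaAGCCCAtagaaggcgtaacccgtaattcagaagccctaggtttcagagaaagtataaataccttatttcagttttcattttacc
P0-2 AT3G09200 chr3:2825242-2825491 (-): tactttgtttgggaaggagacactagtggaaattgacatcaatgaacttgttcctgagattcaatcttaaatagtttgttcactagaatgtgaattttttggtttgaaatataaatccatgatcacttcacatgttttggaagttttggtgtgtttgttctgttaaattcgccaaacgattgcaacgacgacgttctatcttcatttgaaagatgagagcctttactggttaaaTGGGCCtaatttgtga
P0-1 AT2G40010 chr2:16710773-16711022 (-): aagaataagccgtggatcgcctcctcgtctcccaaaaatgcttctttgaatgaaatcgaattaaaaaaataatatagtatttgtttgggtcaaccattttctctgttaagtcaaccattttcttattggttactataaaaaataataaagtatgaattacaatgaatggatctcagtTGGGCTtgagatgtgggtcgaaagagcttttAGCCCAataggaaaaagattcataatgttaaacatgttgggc

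L3-1 had 3 site II matches in its window, L3-2 had 2, P0-2 had 1 and P0-1 had 2. Over the 211 member promoters, 67.3% held a site II match, against 19.2% of 27443 promoters of nuclear protein-coding genes of the same window. A telo-box match was found in 21.8% of member promoters and 4.49% of all, and both motifs in 16.6% and 1.36%. The TATA motif TATAAA was found in 50.7% and 47.3%. The median log2 fold change in T12 was 0.33 for the 132 tested members with a site II match and 0.43 for the 62 without, and 0.38 for the 37 with a telo-box and 0.33 for the 157 without. In T34 these medians were 0.38 and 0.42 for site II and 0.46 and 0.38 for the telo-box. Members with and without either motif thus had medians within 0.1 of each other on the log2 scale. A match is a description of letters, and its absence says only that the letters are not in this window.

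As a body, the members were a little higher in the mutant populations, by a median of 0.34 on the log2 scale in T12 and 0.40 in T34. In T12, 70 of the 194 tested members were called higher than in WT and 7 lower, by limma at an adjusted p under 0.05. Of all 20871 genes tested, 23.1% were called higher and 17.0% lower in T12. The members' shares were 36.1% and 3.61%. In T34, 81 members were called higher and 7 lower, 41.8% and 3.61% of those tested. The shares of all tested genes in T34 were 25.2% higher and 20.0% lower. The median over all tested genes was 0.06 in each comparison. Both comparisons use the same WT libraries, so they are not independent, and 56 members were called higher and 5 lower in both. The share of all tested genes called in both is not given here, so this count has no background beside it.

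The filter itself decided 4 of the members tested. P0-1, P2-3 and S23-1 (AT3G09680) passed it through mutant libraries alone and S17-like (AT3G18880) through WT libraries alone, so their difference from the other side was built into their being tested. Without these 4, 68 members were called higher and 6 lower in T12, and 79 and 7 in T34. Their values are given as a description.

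The changes were small. Among members called higher the median fold was 1.53 in T12 and 1.56 in T34. A fold of 2 or more was reached by 5 members in T12 and 8 in T34. Both counts hold the P-stalk members that passed the filter through mutant libraries alone, whose rise was built into their being tested. The counts were not repeated without them, nor made for all tested genes. By subunit, the large subunit had 40 of 100 tested members called higher and 2 lower in T12, with a median of 0.38. The small subunit had 28 of 85 called higher and 5 lower in T12, with a median of 0.33. In T34 the large subunit had 39 higher and 2 lower with a median of 0.34, and the small subunit 37 higher and 5 lower with a median of 0.46. Beside these counts, 23.1% of all tested genes were called higher and 17.0% lower in T12, and 25.2% and 20.0% in T34. The plot of fold changes by subunit shows the distributions.

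**Figure D1:**
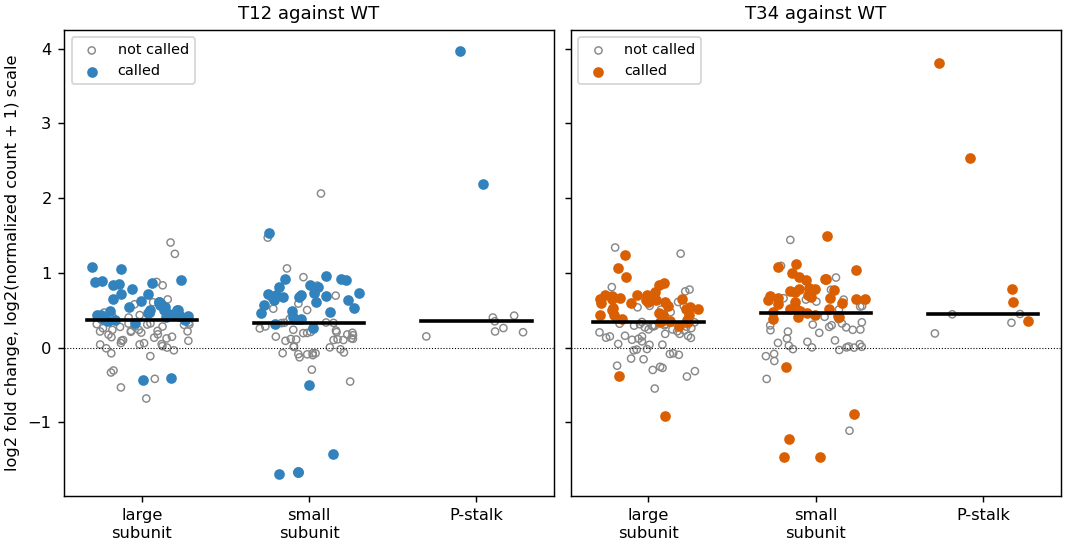
Log2 fold change of each of the 194 tested members against WT (y axis, log2(normalized count + 1) scale), by subunit; the left panel is T12, the right T34, filled points are called at an adjusted p under 0.05 by limma and bars are medians. Most points of each subunit lie above 0 and below 1, with P0-1 at 3.97 and 3.81 far above the rest.

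How many members were called depended on the libraries and the scaling. Leaving out T12 replicate 3 left 35 members called higher in T12 and leaving out T12 replicate 2 left 45, while leaving out T34 replicate 2 left 53 in T34. Leaving out WT replicate 2 gave 90 higher and 12 lower in T12, and 98 and 11 in T34, and the medians became 0.30 and 0.31. Over all tested genes that fit called 27.7% higher and 21.8% lower in T12, and 29.6% and 24.7% in T34. With counts scaled to the total of nuclear reads, 37 members were higher and 10 lower in T12 and 52 and 10 in T34, and in T12 the split of higher against lower moved by over 10 percentage points. That scaling set the median of all tested genes at -0.09 in T12 and -0.07 in T34, and the members' medians at 0.19 and 0.26. Scaling to the upper quartile gave 45 and 9 members in T12 and 57 and 10 in T34. It set the median of all tested genes at -0.052 in T12 and -0.059 in T34, and the members' medians at 0.229 and 0.275. The shares of all tested genes called under these 2 scalings, or with a T12 or T34 library left out, are not given here. Across leave-one-out fits, 32 of the 70 members higher in T12 and 50 of the 81 higher in T34 were called every time.

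WT replicate 2 also differed from the other WT libraries by transcript length. Its level over the mean of WT replicates 1 and 3 had a median log2 ratio of -0.44 over the 66 shortest tested members (246 to 830 bases of exon), -0.46 over the middle 63 and -0.07 over the 65 longest (1062 to 2599 bases). The medians of the log2 fold change in T12 were 0.43, 0.38 and 0.26 in the same order. Without WT replicate 2 they were 0.34, 0.26 and 0.25. In T34 they were 0.34, 0.54 and 0.34 with it and 0.20, 0.38 and 0.34 without. The part that transcript length in that library has in single calls was not tested. The plot of fold changes with and without this library shows each member.

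**Figure D2:**
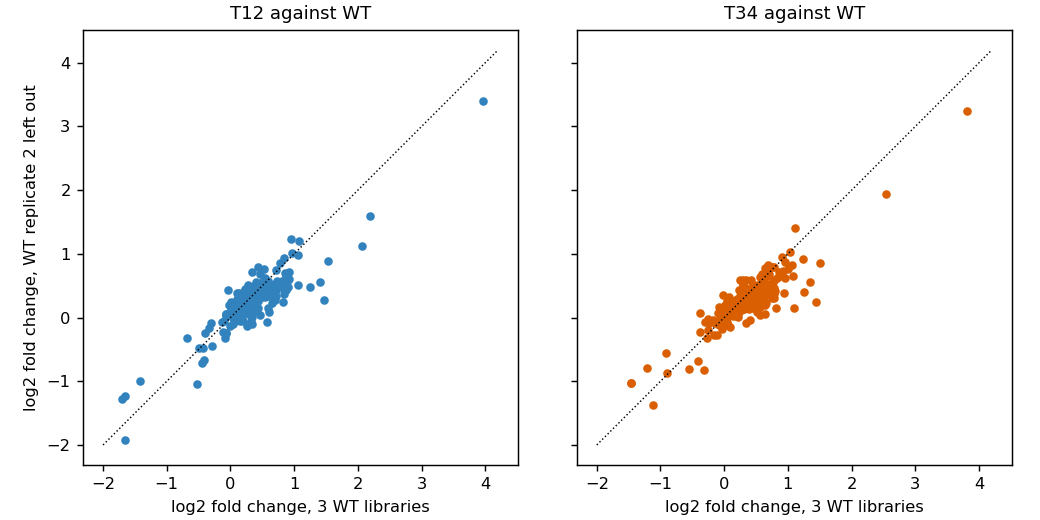
Log2 fold change of each tested member against WT with 3 WT libraries (x axis) and with WT replicate 2 left out (y axis), for T12 and T34; the dotted line marks equal values. Many points lie below the line, and P0-1 moves from 3.97 to 3.39 in T12.

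The share of nuclear reads taken by the 211 members does not depend on how libraries were scaled. It was 2.96, 2.56 and 2.47% in WT, 2.77, 2.91 and 3.08% in T12, and 3.02, 3.04 and 3.05% in T34. The T34 libraries were all above the WT libraries, by a narrow margin, and those of T12 overlapped them. The mean was 2.66% ± 0.261 (SD, n = 3) in WT, 2.92% ± 0.152 in T12 and 3.04% ± 0.0177 in T34. The ratio of large to small subunit reads was 1.27, 1.42 and 1.28 in WT, 1.37, 1.37 and 1.36 in T12 and 1.31, 1.28 and 1.32 in T34, with the range in WT covering both mutant populations.

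Nuclear genes for the ribosomal proteins of chloroplasts and mitochondria, 50 by their descriptions, are the nearest set of like function. They took 0.485, 0.614 and 0.606% of nuclear reads in WT, 0.290, 0.265 and 0.264% in T12 and 0.181, 0.196 and 0.198% in T34, so each group was below the one before without overlap. Of the 46 tested, 3 were called higher and 21 lower in T12, and 1 and 26 in T34, with medians of -0.45 and -0.85 on the log2 scale. As shares these are 6.52% and 45.7% in T12 and 2.17% and 56.5% in T34. All tested genes had 23.1% and 17.0% in T12 and 25.2% and 20.0% in T34. The difference between these genes and the cytosolic members was not tested as such. The plot of read shares sets both sets side by side.

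**Figure D3:**
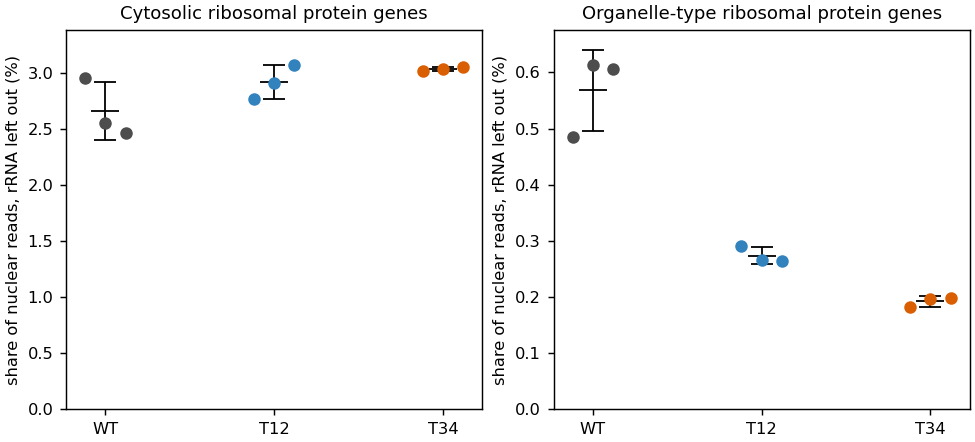
Share of nuclear reads, ribosomal RNA left out, taken by the 211 cytosolic members (left) and by the 50 genes for organelle ribosomal proteins (right), in percent; points are libraries, bars the mean and SD (n = 3). The members stay between 2.47 and 3.08% in every library, and the organelle set goes from 0.485% or more in WT to 0.198% or less in T34.

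The P-stalk has P0, its base on the large subunit, and the small acidic proteins P1, P2 and the plant-specific P3. The gene of P0 with the lowest level, P0-1 (AT2G40010, chr2:16708379-16710772), is one of those that passed the filter through mutant libraries alone. Its normalized counts were 1.23, 0 and 3.82 in WT, 31.4, 41.7 and 28.6 in T12, and 22.1, 33.6 and 36.0 in T34. All mutant libraries were far above all WT libraries, which held 2, 0 and 3 reads. Its fitted difference from WT was 3.97 ± 0.54 on the log2(value + 1) scale in T12 (SE, n = 3) and 3.81 ± 0.54 in T34. With single libraries left out the lowest estimate was 3.39 in T12 and 3.24 in T34. A gene on the opposite strand, AT2G40008, overlaps P0-1 and had at most 1 read in any library.

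The main gene of P0, P0-2 (AT3G09200), had 4965, 4102 and 4352 normalized counts in WT, 5090, 5239 and 5727 in T12 and 5736, 5788 and 5662 in T34. Both mutant populations lay above all WT libraries, by a small margin. In T12 it did not pass the test (0.26 ± 0.11, adjusted p = 0.075), and in T34 it rose by 0.36 ± 0.11 (adjusted p = 0.0201), a call that ended when T34 replicate 1, 2 or 3 was left out (highest adjusted p 0.0672) and with scaling to the nuclear total or the upper quartile. P0-3 (AT3G11250) had 439.8, 303.9 and 362.0 in WT, 409.2, 401.4 and 462.1 in T12 and 441.2, 481.1 and 456.3 in T34, with groups close together, and passed in neither comparison. Per kilobase of exon, P0-2 held 91.8% ± 0.690 of the family's level in WT, 91.5% ± 0.0987 in T12 and 91.5% ± 0.378 in T34. P0-1 went from 0.0340% ± 0.0410 to 0.577% ± 0.135 and 0.483% ± 0.117, still a minor share.

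Of the small acidic proteins, P2-3 (AT3G28500) had 2.46, 0 and 2.55 normalized counts in WT, 7.99, 10.3 and 10.7 in T12 and 7.91, 15.7 and 15.1 in T34. WT lay below both mutant populations, at 4 reads or fewer per WT library. It too passed the filter through mutant libraries alone. Its fitted difference was 2.20 ± 0.58 in T12 and 2.54 ± 0.58 in T34, and without WT replicate 2 these were 1.59 and 1.93. P1-1 (AT1G01100) had 1053, 923 and 804 in WT, 1020, 1049 and 1120 in T12 and 1414, 1542 and 1273 in T34, so that T34 alone stood clear of WT. It rose in T34 by 0.61 ± 0.12 (adjusted p = 0.00298 by limma) and its T12 value was 0.21 (adjusted p = 0.202).

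P3-2 (AT5G57290) had 333, 304 and 274 in WT, 332, 384 and 454 in T12 and 580, 651 and 377 in T34, and rose in T34 by 0.79 ± 0.21 (adjusted p = 0.0124), a call that ended without T34 replicate 2 (highest adjusted p 0.0517). P1-3 (AT5G47700), P3-1 (AT4G25890) and the unnumbered AT2G27720 passed in neither comparison, at log2 values of 0.43, 0.40 and 0.15 in T12 and 0.45, 0.45 and 0.19 in T34. P2-5 (AT5G40040), AT5G24510 and AT3G49460 failed the filter, with normalized counts of 6.72 or less in every library. In all, 2 of the 9 tested P-stalk members were called higher in T12 (22.2%) and 5 in T34 (55.6%), and none lower. Of all tested genes, 23.1% were called higher in T12 and 25.2% in T34. The T12 calls were P0-1 and P2-3 alone, whose difference from WT was built into their being tested. In T34 the calls besides these were P0-2, P1-1 and P3-2.

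In the large subunit, L3 is the protein near the site of peptide bond formation. Its minor gene L3-2 (AT1G61580, RPL3B, chr1:22720560-22723152) had 191.6, 268.8 and 220.5 normalized counts in WT, 488.5, 455.3 and 478.9 in T12 and 350.3, 324.2 and 386.0 in T34. T12 was highest, T34 between, and no groups overlapped. It rose by 1.07 ± 0.14 in T12 (adjusted p = 0.000302 by limma) and by 0.65 ± 0.14 in T34 (adjusted p = 0.00419), and both calls held with each library left out. The difference of T34 from T12 was -0.43 ± 0.14 (adjusted p = 0.166). The main gene L3-1 (AT1G43170), the member with the highest mean normalized count, had 6672, 5096 and 5826 in WT, 6760, 6527 and 7063 in T12 and 7365, 7426 and 7690 in T34. T12 overlapped WT and T34 lay above it. L3-1 rose in T34 by 0.36 ± 0.12 (adjusted p = 0.0317), and this call ended without WT replicate 3, T12 replicate 2 or any T34 library (highest adjusted p 0.0953), with scaling to the nuclear total or the upper quartile, with no filter on low values and with edgeR on the recovered reads.

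L18a is another protein of the large subunit, and its genes went opposite ways in T12. L18a-3 (AT3G14600) had 967, 631 and 774 normalized counts in WT, 1481, 1369 and 1390 in T12 and 1384, 1443 and 1439 in T34, with WT below both. It rose by 0.86 ± 0.14 in T12 (adjusted p = 0.00129 by limma) and 0.87 ± 0.14 in T34 (adjusted p = 0.00102). L18A-1 (AT1G29970, RPL18AA) had 290, 245 and 250 in WT, 194, 193 and 192 in T12 and 214, 220 and 214 in T34, with WT above both. It fell by 0.43 ± 0.11 in T12 (adjusted p = 0.0104), a call that held with each library left out, and had -0.27 in T34 (adjusted p = 0.0639). The overlapping annotation AT1G29965 had a mean normalized count of 2.81 over the 9 libraries.

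Of the other large subunit genes among the largest rises, L27a-3 (AT1G70600) had 561, 269 and 498 normalized counts in WT, 619.7, 786 and 1020 in T12 and 969.5, 1110 and 924 in T34. All mutant libraries were above WT. It rose by 0.91 ± 0.27 in T12 (adjusted p = 0.0260 by limma), a call that ended without T12 replicate 2 or 3 (highest adjusted p 0.0924). In T34 it rose by 1.24 ± 0.27 (adjusted p = 0.00528). With single libraries left out the lowest estimates were 0.582 in T12 and 0.915 in T34. L39-2 (AT3G02190) had 92.1, 46.8 and 66.3 in WT, 114, 118 and 138 in T12 and 138, 152 and 127 in T34, with WT below both. It rose by 0.89 ± 0.23 and 1.07 ± 0.23 (adjusted p = 0.0136 and 0.00491), and the T12 call ended without T12 replicate 3 (highest adjusted p 0.0510).

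L30-2 (AT1G77940) had 1315, 596 and 1012 normalized counts in WT, 1726, 1633 and 1748 in T12 and 1562, 1459 and 1512 in T34, again with WT lowest. It rose by 0.88 ± 0.24 in T12 (adjusted p = 0.0157 by limma). With single libraries left out the lowest estimates were 0.560 in T12 and 0.389 in T34. Its T34 call (0.71 ± 0.24, adjusted p = 0.0355) ended without any 1 of the 7 libraries other than WT replicates 1 and 2, with a highest adjusted p of 0.0923. In the L11 family, AT5G45775 had 927, 514 and 876 in WT, 1100, 1028 and 1328 in T12 and 1202, 1138 and 1308 in T34, with log2 values of 0.62 and 0.70 (adjusted p = 0.0432 and 0.0235). AT3G58700, of the same description (L11-2), had 531, 725 and 509.8 in WT, 437, 424 and 458 in T12 and 422, 465 and 453 in T34, with values of -0.40 and -0.38 (adjusted p = 0.0417 and 0.0474). Every one of these L11 calls ended without some library of T12 or T34, with highest adjusted p values of 0.136 and 0.0747 for AT5G45775 and 0.120 and 0.139 for AT3G58700, and without WT replicate 2 the AT3G58700 value in T34 was -0.22 (adjusted p = 0.0533).

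In the small subunit, the paralogs of S17 changed in balance. S17-3 (AT3G10610, chr3:3318975-3320187) had 221, 46.8 and 149 normalized counts in WT, 304, 309 and 404 in T12 and 344, 318 and 325 in T34. All mutant libraries were above all WT libraries, of which replicate 2 held 4 reads. It rose by 1.53 ± 0.46 in T12 (adjusted p = 0.0256 by limma) and by 1.50 ± 0.46 in T34 (adjusted p = 0.0251). Without WT replicate 2 the estimates were 0.88 and 0.85 with adjusted p of 0.00396 and 0.00416, and the calls ended when any 1 library of the mutant population compared was left out (highest adjusted p 0.0796 and 0.0679). S17-4 (AT5G04800) had 633, 374 and 469 in WT, 755.5, 740 and 859.7 in T12 and 801, 800.1 and 761 in T34, with WT below both. It rose by 0.70 ± 0.17 and 0.71 ± 0.17 (adjusted p = 0.00995 and 0.00824), and both calls held with each library left out.

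S17-1 (AT2G04390) had 652, 374 and 642 normalized counts in WT, 394, 419 and 368 in T12 and 405, 399 and 405 in T34, with WT replicate 2 among the mutant values. It did not pass, at -0.45 ± 0.20 and -0.42 ± 0.20 (adjusted p = 0.0930 and 0.110 by limma). Without WT replicate 2 its T12 value was -0.72 (adjusted p = 0.000201). As shares of the S17 family's level per kilobase of exon, S17-1 had 31.6% ± 1.51 in WT, 20.6% ± 2.76 in T12 and 20.0% ± 0.0656 in T34. S17-3 had 7.49% ± 3.24, 18% ± 1.44 and 16.8% ± 0.576 in the same order. S17-4 had 18.6% ± 2.48, 26.7% ± 0.823 and 25.6% ± 0.949. In these 3 genes the shares of every mutant library lay outside the WT range, and shares do not depend on the scaling of libraries. A gene described as S17-like (AT3G18880) had 19.7, 11.7 and 21.7 normalized counts in WT, 2.85, 5.77 and 6.17 in T12 and 7.12, 6.72 and 8.37 in T34, where the WT value of 11.7 is 1 read. It passed the filter through WT libraries alone, and its fitted differences were -1.66 ± 0.41 in T12 and -1.11 ± 0.41 in T34.

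**Figure D4:**
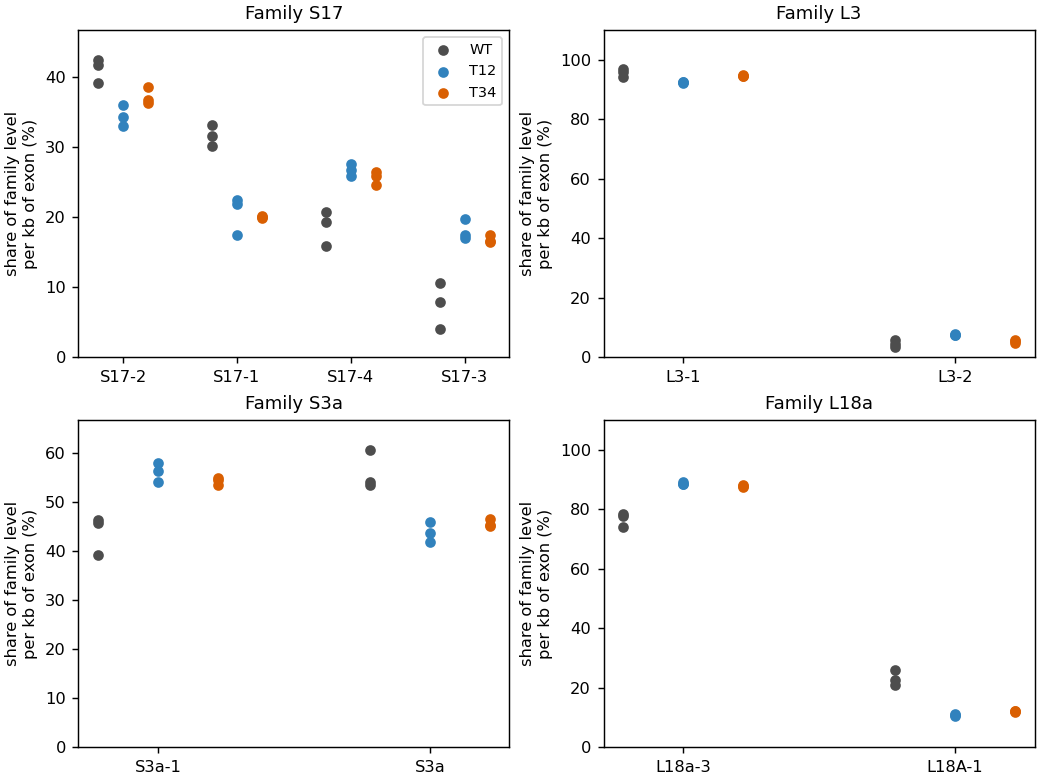
Share of each paralog in its family's summed level per kilobase of exon (y axis, percent), with 1 point per library, for the S17, L3, S3a and L18a families, paralogs of a mean under 30 per kilobase left out. Families hold only the members chosen by description. S17-1 goes down from 31.6% in WT to 20.6% in T12 while S17-3 and S17-4 go up, and L3-2 goes from 4.43% to 7.56% in T12.

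Over the 74 families of at least 2 paralogs, the mean share of 40 of 202 paralogs, in 23 families, moved from WT by 5 points or more with no overlap in T12. In T34 this held for 43 paralogs in 24 families. The WT means include WT replicate 2, and these counts were not repeated without it. The shares of a family add up to its whole, so in a family of 2 genes a move counts for both paralogs. The S17, L3, S3a and L18a families were chosen for the plot of paralog shares after their values were seen, and other families moved as far, such as L12, where L12-1 (AT2G37190) moved by -12.8 points in T34. The WT shares of L12-1 were 44.6, 60.2 and 48.9%, with the highest in WT replicate 2. S3a has 2 genes of like level. S3a-1 (AT3G04840) had 2620, 2057 and 2294 normalized counts in WT, 3665, 3383 and 3576 in T12 and 3295, 3256 and 3411 in T34, with all mutant libraries higher. It rose by 0.61 ± 0.11 in T12 and 0.52 ± 0.11 in T34 (adjusted p = 0.00162 and 0.00335 by limma). Its partner AT4G34670 had 3085 ± 243 (SD, n = 3) in WT, 2871 ± 117 in T12 and 2904 ± 49.2 in T34, with log2 values of -0.10 and -0.08. S3a-1 thus held 43.9% ± 3.93 of the family's level per kilobase in WT, 56.2% ± 2.00 in T12 and 54.3% ± 0.741 in T34. In the L18a family, L18a-3 held 76.8% ± 2.31, 88.8% ± 0.267 and 87.8% ± 0.289. All families here hold only members chosen by description, so a paralog described otherwise is missing from these shares. In the L3 family, L3-2 held 4.43% ± 1.29, 7.56% ± 0.223 and 5.22% ± 0.346, where T12 lay outside the WT range and T34 within it.

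The S2 family also went both ways. S2-4 (AT3G57490) had 127, 81.8 and 115 normalized counts in WT, 166, 154 and 195 in T12 and 199, 217 and 188 in T34, without overlap between WT and either. It rose by 0.68 ± 0.18 in T12 (adjusted p = 0.0148 by limma) and by 0.92 ± 0.18 in T34 (adjusted p = 0.00293), and the T12 call ended without T12 replicate 3 (highest adjusted p 0.0584). AT1G58684, described as S2-2 (chr1:21769674-21771303), had 78.0, 175 and 66.3 in WT, 26.8, 25.0 and 37.0 in T12 and 35.6, 39.6 and 29.3 in T34, with WT above both. It fell by 1.70 ± 0.36 and by 1.46 ± 0.36 (adjusted p = 0.00466 and 0.00868), which is 3.24-fold and 2.75-fold lower, and without WT replicate 2 by 1.27 and by 1.03. The genes AT1G59359 and AT1G58983 share this description and had the same or nearly the same values, with 127, 15 and 52 reads in WT for AT1G59359 as for AT1G58684. They make up 3 of the 7 falls in each comparison, and whether they share reads was not tested.

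Other small subunit genes among the largest rises were of modest level. S21-1 (AT3G53890) had 576, 304 and 433 normalized counts in WT, 699, 712 and 821 in T12 and 829.5, 839 and 864 in T34, and rose by 0.81 ± 0.20 and 0.99 ± 0.20 (adjusted p = 0.0104 and 0.00312 by limma). S11-2 (AT4G30800) had 73.7, 81.8 and 71.4 in WT, 125.5, 162 and 159 in T12 and 129, 119.5 and 133 in T34, and rose by 0.96 ± 0.15 and 0.74 ± 0.15 (adjusted p = 0.000880 and 0.00301). In both genes all mutant libraries were above WT and the calls held with each library left out. The lowest S21-1 estimates in those fits were 0.571 in T12 and 0.756 in T34. S27-1 (AT2G45710) had 127, 58.4 and 103 in WT, 169.5, 157 and 198.5 in T12 and 175, 184 and 174 in T34, and rose by 0.92 ± 0.25 and 0.95 ± 0.25 (adjusted p = 0.0174 and 0.0137), with the T12 call ended without T12 replicate 3 (highest adjusted p 0.0624).

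S19-3 (AT5G61170) had 727, 280.5 and 644 normalized counts in WT, 842, 962 and 1070 in T12 and 1066, 1123 and 1026 in T34, higher in every mutant library. It rose by 0.91 ± 0.30 and 1.07 ± 0.30 (adjusted p = 0.0394 and 0.0177 by limma). With single libraries left out the lowest estimates were 0.479 in T12 and 0.646 in T34. The T12 call ended without any 1 mutant library (highest adjusted p 0.111) and under scaling to the nuclear total, and the T34 call without T34 replicate 2 (0.0555). S9-2 (AT5G39850) had 137, 129 and 124 in WT, 191, 148 and 211 in T12 and 225, 297 and 285 in T34, in the order WT, T12, T34 but with T12 close to WT. It rose in T34 by 1.03 ± 0.17 (adjusted p = 0.000921), a call that held with each library left out, and its T12 call (0.48, adjusted p = 0.0450) ended without any 1 library other than T12 replicate 2 or T34 replicate 1 (highest adjusted p 0.153).

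Apart from the S2-2 copies, few genes of the small subunit fell. AT5G47940, whose description is S27, had 388, 339 and 265 normalized counts in WT, 257, 239 and 199 in T12 and 206, 164 and 159 in T34. WT was above both mutant populations, which overlapped each other. It fell in T34 by 0.89 ± 0.18 (adjusted p = 0.00293 by limma), 1.86-fold, with the call held at each library left out, and its T12 value was -0.50 ± 0.18 (adjusted p = 0.0476), lost without any 1 library other than WT replicate 3 or T34 replicate 1 (highest adjusted p 0.155). At 2599 bases of exon it was the longest tested member. S24-2 (AT5G28060) had 2532, 2770 and 2381 in WT, 2327, 2368 and 2313 in T12 and 2119, 2087 and 2214 in T34, and a T34 value of -0.26 ± 0.09 (adjusted p = 0.0398) that was lost without any 1 library other than WT replicate 2 or 3 (highest adjusted p 0.127). The other fall in T34 was AT5G02440, described as L36, a large subunit gene outside the naming rule and singled out after its values were seen, with 46.1, 93.5 and 42.1 normalized counts in WT and 33.2, 22.4 and 34.3 in T34 (adjusted p = 0.0421). The WT value of 93.5 rested on 8 reads, and the call was lost without any 1 library other than WT replicate 1 or 3 (highest adjusted p 0.146).

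**Figure D5:**
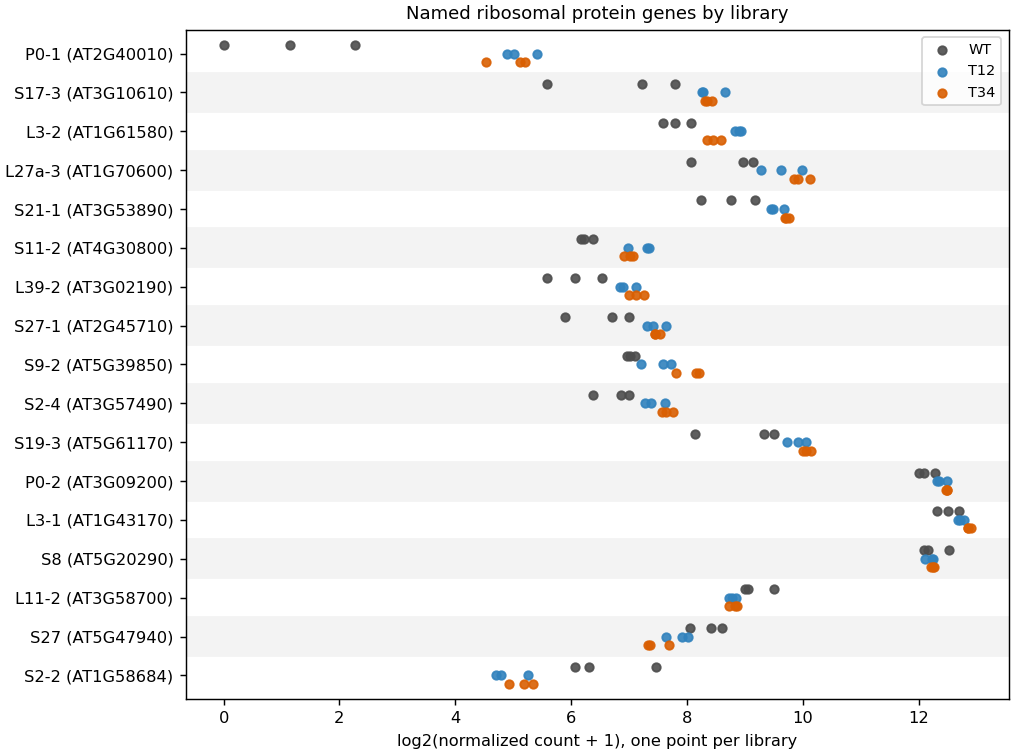
Log2(normalized count + 1) of 17 named members (x axis), with 1 point per library, in WT, T12 and T34. From P0-1 to S19-3 every mutant library is to the right of every WT library, and the lowest 3 genes go the other way.

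The 3 members of highest level per kilobase did not pass the test in T12 or T34. Per kilobase of exon, mean levels of tested members ran from 8.48 (P2-3) to 4961 (L19-1, AT1G02780) normalized counts, with a median of 1133. L19-1 had 4561, 6241 and 4562 normalized counts in WT, 4848, 5175 and 5632 in T12 and 6063, 6133 and 6303 in T34, with WT replicate 2 among the mutant values, and log2 values of 0.04 and 0.28 (adjusted p = 0.833 and 0.122 by limma). S8 (AT5G20290) had 4609, 5926 and 4369 in WT, 4406, 4841 and 4800 in T12 and 4923, 4745 and 4896 in T34, and values of -0.07 and -0.02 (adjusted p = 0.666 and 0.907). L17-2 (AT1G67430) had 3196, 3530 and 2780 in WT, 3382, 3342 and 3365 in T12 and 3432, 3442 and 3676 in T34, and values of 0.09 and 0.16 (adjusted p = 0.507 and 0.250). In S8 and L17-2 the groups overlapped. The next in level, S23-2 (AT5G02960), was called higher in both, with 2833, 1566 and 2374 in WT, 3241, 3165 and 3394 in T12 and 3291, 3351 and 3316 in T34. Its values were 0.58 ± 0.19 and 0.60 ± 0.19 (adjusted p = 0.0345 and 0.0266). Without WT replicate 2 they were 0.33 and 0.36, and the T12 call ended without any 1 library other than WT replicate 1 or 2 (highest adjusted p 0.0924) and the T34 call without T34 replicate 1, 2 or 3 (0.0728). L3-1, the fifth, was called in T34 as given above.

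Over 74 families of at least 2 paralogs, mitochondrial descriptions left out, the paralog of highest mean level per kilobase had a median log2 fold change of 0.33 in T12 and 0.38 in T34, and the other 111 tested paralogs 0.40 and 0.43. Of the 74 top paralogs, 26 were called higher and 0 lower in T12, and 31 and 1 in T34. Of the others, 39 were higher and 7 lower in T12, and 47 and 6 in T34. Beside these, 23.1% of all tested genes were called higher and 17.0% lower in T12, and 25.2% and 20.0% in T34. In 5 of 69 families with at least 2 tested genes every tested gene was called higher in T12 (L23a, L24, L28, S11 and S6), and in 9 in T34 (L23a, L3, L7a, S11, S12, S13, S5, S6 and SA). Genes of 1 family were called in both directions in 5 families in T12 and 3 in T34, L11, S2 and the S27 descriptions in both. Paralogs alike in sequence can share reads, and how the authors counted such reads is not given in the sources used here. A gene of the opposite strand overlaps 42 members, and the strand setting of the counting is likewise not given.

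The last comparison sets the mutant populations against each other, and these also differed without overlap in their share of ribosomal RNA. None of the 194 was called higher or lower in T34 against T12 by limma, where 0.858% of all tested genes were called higher and 1.52% lower. At an unadjusted p under 0.05 there were 13 members (6.7%), against 15.4% of all tested genes. There edgeR called 0 higher and 1 lower and DESeq2 1 and 2, and 4 higher and 3 lower were called without WT replicate 2, where 4.3% and 4.79% of all tested genes were. The median was 0.03, with values from -0.97 to 0.56. The highest was S9-2 at 0.56 ± 0.17 (adjusted p = 0.138). The P1-1 value was 0.40 ± 0.12 (adjusted p = 0.139).

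Genes of translation and of ribosome making were read beside the members. Of 29 translation factors and ribosome partners, 10 were called higher and 0 lower in T12 and 14 and 1 in T34, with medians of 0.15 and 0.36. The shares higher and lower were 34.5% and 0% in T12 and 48.3% and 3.45% in T34. For all tested genes they were 23.1% and 17.0% in T12 and 25.2% and 20.0% in T34. The gene EF1B-A1 (AT5G12110), for a guanine exchange subunit of elongation factor eEF1B, had 14.7, 11.7 and 16.6 normalized counts in WT, 302, 539.9 and 541 in T12 and 285.5, 511 and 871 in T34. Mutant libraries were all more than 10-fold above WT. It rose by 4.88 ± 0.38 and 5.05 ± 0.38 (adjusted p = 2.07e-05 and 1.36e-05 by limma), while EF1B-A2 (AT5G19510), with 1420 ± 104 (SD, n = 3) in WT, had -0.05 in T12 (adjusted p = 0.724) and 0.32 in T34 (adjusted p = 0.0287, lost with 4 of the libraries left out in turn, up to 0.108). EIF5A-3 (AT1G69410), of the translation factor eIF5A, rose from 354 ± 105 to 1067 ± 95.2 and 1008 ± 23.4, by 1.63 and 1.55 (adjusted p = 0.000276 and 0.000295). EF1A2, of elongation factor eEF1A, and EIF4E, of the cap-binding protein, rose in both, by 0.60 and 0.66 in T12 and 0.74 and 0.50 in T34.

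Of 39 ribosome biogenesis genes, 5 were called higher and 6 lower in T12 and 7 and 4 in T34, with medians of -0.05 and 0.01. The shares were 12.8% and 15.4% in T12 and 17.9% and 10.3% in T34, against 23.1% and 17.0%, and 25.2% and 20.0%, of all tested genes. Most genes did not pass, in this list as among all tested genes. NOP56 (AT1G56110), of the box C/D particles that guide methylation of ribosomal RNA, had 746, 573 and 591 normalized counts in WT, 926, 894 and 1188 in T12 and 1128, 1109 and 1185 in T34. It was higher in all mutant libraries and rose by 0.65 ± 0.14 and 0.85 ± 0.14 (adjusted p = 0.00529 and 0.00108 by limma). Its partners NOP58-1 and NOP58-2 rose by 0.60 and 0.47 in T12 and 0.68 and 0.53 in T34. BRX1-1 (AT3G15460) had the largest rises listed, 1.28 in T12 and 1.24 in T34 (adjusted p = 0.0252 and 0.0258 by limma). Each of these calls ended with 3 of the libraries left out in turn. LSG1-1 (AT2G27200) fell by 0.67 and by 0.75 (adjusted p = 0.0308 and 0.0179), calls lost with 5 and 4 of the libraries left out in turn. The helicase gene RH7 (AT5G62190) had 1957, 2641 and 1908 in WT, 1214, 1284 and 1253 in T12 and 1437, 1579 and 1417 in T34, and fell by 0.78 ± 0.13 and by 0.54 ± 0.13 (adjusted p = 0.00135 and 0.0081).

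Of 11 genes of TOR and SnRK1 signalling, 2 were called higher and 5 lower in T12 and 2 and 4 in T34. These are 18.2% and 45.5% in T12 and 18.2% and 36.4% in T34. The shares of all tested genes were 23.1% and 17.0% in T12 and 25.2% and 20.0% in T34. The rises were the S6 kinases. S6K2 (AT3G08720) had 169, 152 and 147 normalized counts in WT, 848, 1207 and 1178 in T12 and 1153, 1325 and 1615 in T34, and S6K1 (AT3G08730) 501, 456 and 542 in WT, 1327, 1038 and 1011 in T12 and 1056, 979 and 1030 in T34. Every mutant library was above every WT library in both genes, which are alike in sequence and may share reads. S6K2 rose by 2.77 ± 0.17 and 3.11 ± 0.17 (adjusted p = 5.25e-06 and 2.71e-06 by limma) and S6K1 by 1.16 ± 0.12 and 1.03 ± 0.12 (adjusted p = 0.000102 and 0.000167). LARP1A (AT5G21160), whose protein binds mRNAs of the translation machinery under TOR, fell by 0.90 ± 0.10 and by 0.65 ± 0.10 (adjusted p = 0.000103 and 0.000538). MAF1 (AT5G13240), a repressor of RNA polymerase III, fell by 0.75 and by 1.15 (adjusted p = 0.00295 and 0.000216). TOR (AT1G50030) fell in T12 by 0.34 (adjusted p = 0.0116) and had -0.06 in T34 (adjusted p = 0.595).

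Markers of other tissues were counted in the same way. Beside their counts, 23.1% of all tested genes were called higher and 17.0% lower in T12, and 25.2% and 20.0% in T34. Of 5 embryo and seed genes (CRA1, OLEO2, OLEO1, EM1 and SESA1), 1 was called higher in T12 and 4 in T34, and their summed normalized counts were 56.1 to 2139 in WT, 1623 to 3713 in T12 and 7575 to 17558 in T34. The WT and T12 sums overlapped. In T12, 4 of the 5 had log2 values above 0 and EM1 had -0.78. Of 7 genes of dividing cells and meristems, 1 was called higher in T12 and 3 in T34, with sums of 593 to 783, 670.5 to 672.7 and 883 to 1005. The T12 sums lay within the WT range. In T34, 4 of the 7 had log2 values above 0, with STM highest at 2.29. PLT1, PLT2 and CDKB2;1 had -0.86, -0.22 and -0.03 there. Of 4 tested leaf genes, 1 was called higher and 1 lower in T12 and 0 and 3 in T34. Of 4 tested root genes, none was higher and 2 were lower in each, and the sums of all 5 listed were 404 to 744 in WT, 284 to 492 in T12 and 320 to 337 in T34. No listed marker was at 0 in every library of a group. The part of these tissues in the members' changes was not tested.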

How the data were processed

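RNA was measured in 9 libraries of whole seedlings, 3 each of WT, T12 and T34. Per the submitters' processing notes reads were handled with HISAT2 2.1.0, cutadapt 1.8.1, DESeq2 1.22.2 and featureCounts 1.6.2 on build TAIR10, with settings not given in the sources used here. The authors deposited, per the file headers, a normalized count per gene and library (a signal: the count divided by a size factor), and for each gene a log2 fold change, a score (the test statistic) and a p-value, raw and adjusted. In the labels library 7 stands under WT and also under T34, and library 6 under no group. From the tables that hold them, library 7 was taken as WT replicate 1 and library 6 as T34 replicate 3. Nothing says that replicates came from separate cultures, so the p-values cover only the spread among these libraries, which may be technical.

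Values moved in steps of 1 read, and 100% came out as whole reads at a tolerance of 0.01. Because the deposited values are normalized, the count test that had been planned became an alternative and limma-trend (limma 3.58.1, R 4.3.3) was the main test. It ran on log2(normalized count + 1), over all 9 libraries in 1 fit, with Benjamini-Hochberg adjustment over 20871 genes that had at least 10 in at least 3 libraries. Fold changes on that scale understate changes of low genes. edgeR 4.0.16 and DESeq2 1.42.0 ran on the recovered reads, and the fits were tested on simulated data. Reads of rows within 6000 bases of a ribosomal RNA gene were left out of nuclear totals.

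Promoters, exon lengths and overlaps came from RefSeq assembly TAIR10.1, which matched 29991 of 30271 loci; the tables hold no coordinates. The members and all lists were chosen with earlier results of these data known. Per comparison, the named members are the 8 largest rises and 8 largest falls among those that passed, with a mean of at least 100 and groups that do not overlap. To these come the 5 of highest mean, all P-stalk members, and the ends of families called in both directions. S3a, S17-1 and S17-4 were chosen after their values were seen.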

Additional observations from a re-analysis of the deposited data

How the results depend on the processing

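Counts of called members, higher and then lower, moved by over 1.5 times under these settings. Apart from the fit without WT replicate 2, the shares of all tested genes called under them are not given. In T12 against WT, 70 higher became 45 with upper quartile scaling and 37 with scaling to the nuclear total, and 35 to 92 with single libraries left out. In the same comparison 7 lower became 15 when members were extended by symbol, and 5 to 12 with libraries left out. In T34 against WT, 81 higher became 52 with scaling to the nuclear total, and 53 to 113 with libraries left out. There 7 lower became 4 with no filter on low values, 12 with edgeR and 18 when extended by symbol, and 3 to 11 with libraries left out. In T34 against T12, 0 higher became 1 with DESeq2 and 1 when extended by symbol, and 0 to 4 with libraries left out, while 0 lower became 1 with edgeR, 2 with DESeq2 and 2 when extended by symbol, and 0 to 3 with libraries left out. The extension by symbol also takes in disease resistance genes named RPP or RPS. Adding only 5 cytosolic genes, chosen after seeing the data, changed no count by over 1.5 times. By the adjusted p in the authors' deposited table, 76 members were higher and 8 lower in T12, and 86 and 7 in T34. For single named members, 733 values under other settings kept their side of the threshold, 24 lost it and 11 gained it, and with libraries left out 774, 78 and 12, and no call reversed. Except where a setting leaves out libraries or genes, the cause was not tested. No paired analysis was possible because the labels give libraries of different groups no shared numbers. No member is annotated as a pseudogene, so the shares without pseudogenes have no separate value. Depth limits WT replicate 2, where 1 read is worth 11.7 normalized counts.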
